A study of Mus musculus with 15 samples.

Results

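The miR-297, miR-466, miR-467 and miR-669 miRNAs are the mature products of a large group of related mouse hairpins, most of which lie in a single intron of the Sfmbt2 gene. They were taken by name from the deposited table of miRNAs and piRNAs, as every entry whose name begins with mmu-miR-297, mmu-miR-466, mmu-miR-467 or mmu-miR-669 followed by a letter, a hyphen or the end of the name. This gave 44 of the 1994 entries, of which 2 belong to miR-297, 16 to miR-466, 9 to miR-467 and 17 to miR-669. The names place 22 of them on the 3p arm of their hairpin and 14 on the 5p arm, while 8 names give no arm. In 7 entries several names are joined, so their counts cannot be divided between those names, and the joined entry miR-466m-5p/miR-669m-5p was counted with miR-466. The rule uses the names alone.

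Microglia, the immune cells that reside in the brain, were the source of every library. Sorting used CD11b and CD45 (and CX3CR1, by the study's methods), with cells taken from wild-type (WT) animals and from the transgenic (TG) 5xFAD line, in which human transgenes driven by a neuronal promoter lead to amyloid deposits. The injected dye Methoxy-X04 (Me-X04) labels amyloid, and every animal received it, so that TG cells could be divided into a dye-positive group (TG Me-X04+) and a dye-negative group (TG Me-X04-), while WT cells were dye-negative. There are 5 libraries in each of the 3 groups, and dye-positive and dye-negative TG libraries of the same number stem from 1 mouse. The sample labels carry 5xFAD as the strain of all mice and give an age of 2 months for WT and 6 months for TG, so genotype and labelled age cannot be told apart in any comparison with WT, and the study's methods state ages and animal numbers that differ from these labels.

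A miRNA is cut from an RNA hairpin, and either the 5p or the 3p arm of the hairpin can be loaded into the silencing complex, where the seed (bases 2 to 8) pairs with target mRNAs. Sfmbt2 encodes a polycomb-group protein and is an imprinted gene, expressed from the paternal allele in the early mouse embryo and the placenta. The cluster of hairpins in its intron is known from rodents, and in the mouse it has been linked to growth of the placenta. Its members derive from simple repeats and therefore resemble one another, with long stretches of alternating U and G or of alternating C and A.

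The GENCODE vM21 annotation (GRCm38, the build named in the submitters' processing notes) holds 81 hairpin genes of these 4 families. Of these, 71 lie inside Sfmbt2 (chr2:10370510-10595253, plus strand), all on the plus strand. They stretch over chr2:10466663-10518279, a span of 51.6 kb, between an Sfmbt2 exon that ends at 10461472 and the next one, which starts at 10523945, and 0 of them overlap an exon. The other 10 hairpins lie elsewhere. By this annotation 37 entries come from the Sfmbt2 intron alone, and miR-297a-3p/miR-297b-3p/miR-297c-3p has hairpins both there and on chromosome 7. The remaining 6 entries, miR-466i-3p, miR-466i-5p, miR-466j, miR-466k, miR-467f and miR-669n, have hairpins outside Sfmbt2 only, so they carry the family names without belonging to the intron. These 6 entries made up 14.6% of the members' UMIs (unique molecular identifiers, which count original RNA molecules) and the 37 intronic entries 84.7%. Of the 7 annotated Sfmbt2 transcripts 0 were matched in the table of other RNAs, and the level of the host gene was not analysed here.

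RefSeq mature sequences (GRCm38.p6) were matched for 5 of the 44 entries, and they are shown because they display the repeat that the families are built on and because all 5 come from the hairpins outside the intron. The seed is in capitals.
miR-466i-3p: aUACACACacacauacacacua
miR-467f: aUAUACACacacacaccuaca
miR-466k: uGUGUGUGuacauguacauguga
miR-466j: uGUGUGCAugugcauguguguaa
miR-669n: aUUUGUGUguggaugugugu
Their genomic positions are chr13:17747552-17747573 (plus strand) for miR-466i-3p, chr11:69635419-69635439 (minus strand) for miR-467f, chr3:85467396-85467418 (plus strand) for miR-466k, chr10:60960802-60960824 (plus strand) for miR-466j and chr3:115979905-115979924 (plus strand) for miR-669n. All 5 contain CACACA or its reverse complement UGUGUG, which are found in 40 (2.38%) of the 1679 mature mouse sequences of the same table. The first pair shown is of the CA kind and the other three of the UG kind. The longest stretch that alternates U with G or C with A runs from 7 bases in miR-466j to 12 bases in miR-467f, against a median of 3 bases over the table. The 5 seeds all differ from one another, and no other mature sequence of the table shares any of them. Sequences of the other members were not matched, so whether those members share a seed with these 5 was not examined.

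The libraries held 240027 to 372998 miRNA and piRNA UMIs in TG Me-X04+, 405351 to 682553 among dye-negative TG libraries and 424536 to 1192832 in WT. The smallest deposited value above 0 is 10 UMIs, so an entry listed at 0 may have had up to 9. In bulk libraries such as these, fewer cells of a type and less RNA per cell cannot be told apart. Among the 5 myeloid miRNAs checked, miR-142a-3p and miR-146a-5p were abundant in all 15 libraries. The other members of that list, miR-223-3p, miR-142a-5p and miR-155-5p, were above 0 in all 15 at lower levels. The TMM-scaled median of miR-223-3p was 388 CPM in WT, 403 CPM in TG Me-X04- and 71.2 CPM in TG Me-X04+. Of the neuronal miRNAs checked, miR-9-5p, miR-128-3p and miR-138-5p were also above 0 in all 15 and miR-124-3p in 14. WT replicates 4 and 5 stood apart by 0.487% and 0.422% of reads on mRNA, against 0.0690% to 0.136% in the other libraries, and TG Me-X04+ replicate 3 had the largest share of reads too short to assign, at 48.7%, and the smallest miRNA share, at 7.39%.

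The members were scarce in microglia. Together they had 5729 UMIs over the 15 libraries, 0.0764% of all miRNA and piRNA UMIs, and 62.4% of their values were listed at 0, against 31.3% over the whole table. Only 4 members were above 0 in all 15 libraries (miR-669c-5p, miR-669a-5p/miR-669p-5p, miR-669j and miR-466d-3p), 10 were seen in 1 library, and a further 12 in 2 or 3. The filter on low counts kept 15 of the 44 members (34.1%), against 72.0% of all entries. The miR-669 family held 58.7% of the members' UMIs, miR-466 24.3%, miR-467 15.7% and miR-297 1.29%. The 5p entries held 2867 UMIs, the 3p entries 2013 UMIs and the entries with no arm in their name 849 UMIs. A single entry, miR-669c-5p, held 24.4% of the members' UMIs. In the reads behind each UMI the 15 tested members did not stand out, with 8.48 to 11.2 reads per UMI and a median of 10.1. The median was also 10.1 over 1339 other entries with total UMIs in the range of these members (91 to 1399).

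**Figure D1:**
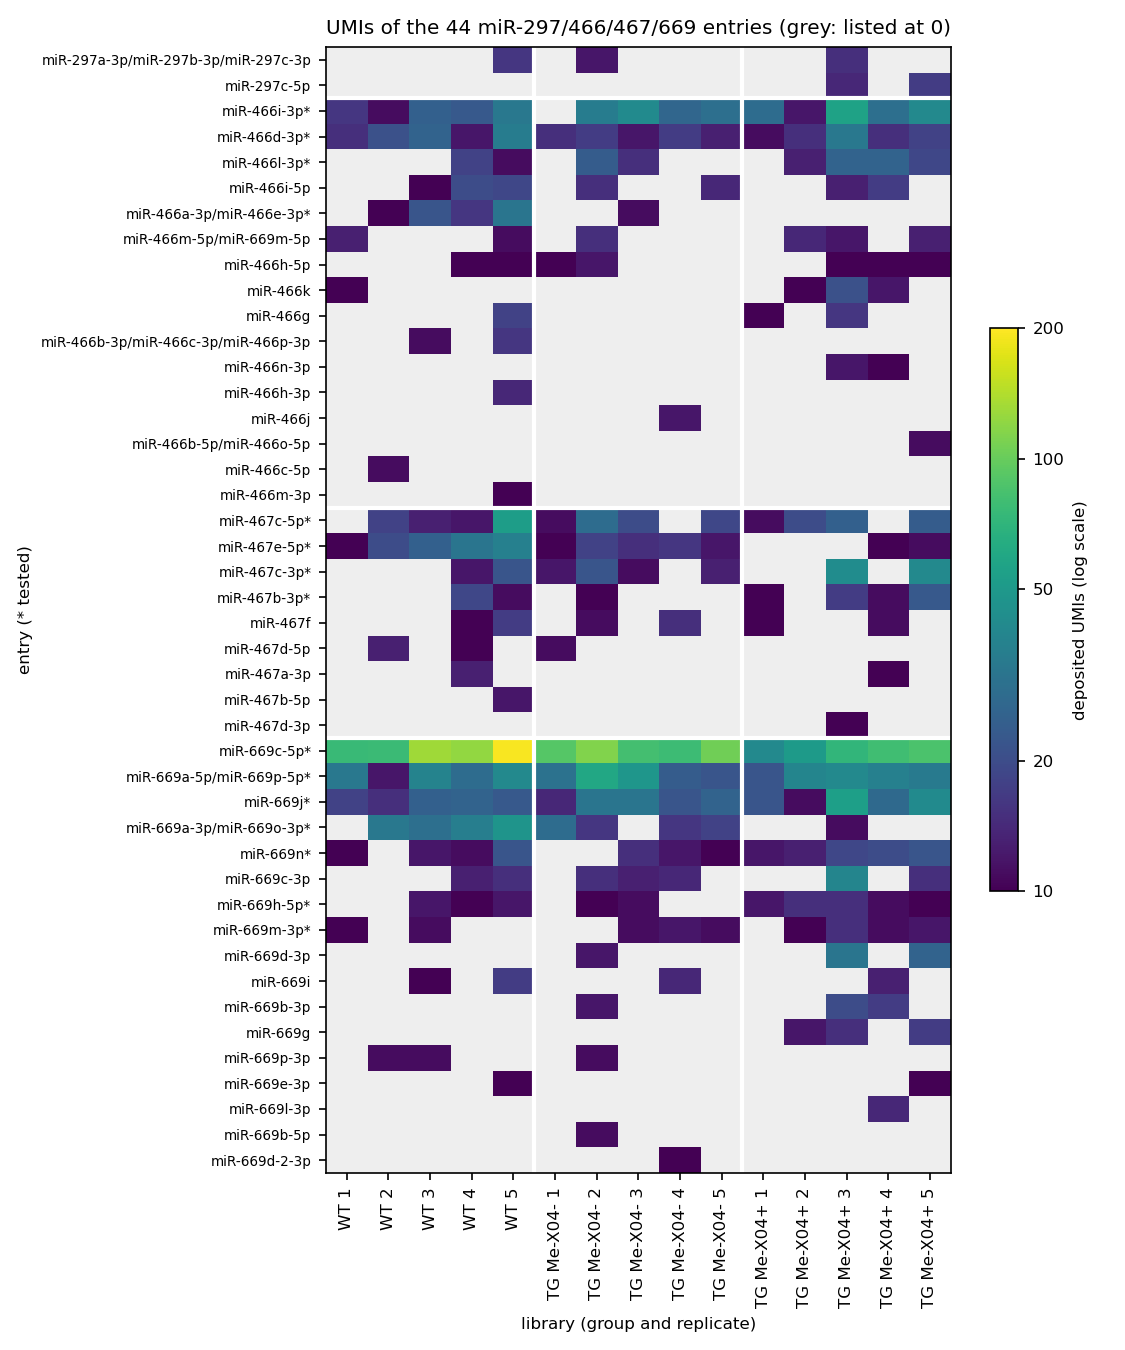
Deposited UMIs of the 44 entries (rows, grouped by family, most abundant first) in the 15 libraries (columns) on a log color scale, with grey for entries listed at 0 and an asterisk for the 15 entries tested. The brightest row is miR-669c-5p, with 41 to 194 UMIs, and 62.4% of the cells are grey.

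The number of members above 0 per library was 10 to 27 in WT, 10 to 22 among dye-negative TG libraries and 11 to 26 in TG Me-X04+, so the 3 groups overlapped. The most were seen in the deepest library, WT replicate 5 (27 of 44 at 1192832 UMIs), and in TG Me-X04+ replicate 3 (26 of 44 at 272104 UMIs). When every library was scaled down to the smallest one and values under 10 were set to 0, the median number was 3 in WT (range 2 to 6), 4 among dye-negative TG libraries (3 to 5) and 14 in TG Me-X04+ (10 to 24). The share of all entries above 0 went the same way, with means of 28.7%, 33.5% and 67.1%. Scaling down matched only the total of miRNA and piRNA UMIs, the scale on which most entries were higher in TG Me-X04+.

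miR-669c-5p is the most abundant member. Its counts were 76, 77, 130, 123 and 194 UMIs in WT replicates 1 to 5. In TG Me-X04- they were 91, 113, 82, 78 and 105 UMIs, and in TG Me-X04+ they were 41, 51, 72, 80 and 86 UMIs. Scaled with TMM factors, which set libraries against each other by the bulk of their entries, the level was 262 ± 39.5 CPM (a count scaled to a fixed library total) in WT, 213 ± 42.5 CPM among dye-negative TG libraries and 134 ± 28.3 CPM in TG Me-X04+ (SD, n = 5). All 5 TG Me-X04+ libraries, at 92.6 to 163 CPM, were below the lowest WT library (215 CPM) and also below the lowest TG Me-X04- library (170 CPM). The log2 fold change of TG Me-X04+ against WT was -0.97 ± 0.21 (SE, adjusted p = 0.00206, edgeR's quasi-likelihood test with Benjamini-Hochberg adjustment over 1435 entries). Against TG Me-X04- it was -0.67 ± 0.21, with an adjusted p of 0.0419 by the same edgeR test, and this fell short of the fold threshold of 0.7 used for calls. It crossed both thresholds when dye-negative replicate 3 was left out (-0.83, edgeR adjusted p = 0.00886). It did so too when dye-positive replicate 4 (-0.75) or 5 (-0.74) was left out. The edgeR adjusted p rose to 0.114, 0.0592, 0.0502 and 0.130 without dye-negative replicates 1, 2, 4 and 5. It rose to 0.0945, 0.0737 and 0.0870 without dye-positive replicates 1, 2 and 3, and to 0.0506 and 0.0501 without WT replicates 3 and 4. Without WT replicate 1, 2 or 5 it stayed under 0.05.

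The direction of miR-669c-5p depended on the scaling. In library-size CPM, which set each count against the library's miRNA and piRNA UMIs with no TMM factor, it stood at 185 ± 20.1 in WT, 171 ± 23.3 among dye-negative TG libraries and 232 ± 60.5 in TG Me-X04+. Its log2 fold change against WT then became 0.33, with an adjusted p of 0.223 (edgeR). The same switch moved the median log2 fold change of all 1435 tested entries from 0.27 to 1.65. Relative to that median miR-669c-5p was lower by a like amount on both scales, at -1.24 with TMM and -1.32 without it, and 12.2% and 11.7% of entries lay below it. A change of scaling moves all entries by much the same amount, so this likeness was largely set by construction. Within the members' own counts, which need no scaling, miR-669c-5p took 25.6% to 36.0% of the UMIs in WT and 22.1% to 38.9% in TG Me-X04-. Its share was at most 21.7% in TG Me-X04+, with a median of 20.4%, below every library of the other groups. That denominator holds many entries listed at 0. Among the UMIs of only the 4 members above 0 in all libraries, the share of miR-669c-5p was 42.7%, 44%, 36.0%, 50% and 47.8% in TG Me-X04+ replicates 1 to 5, where every library lay below WT (53.5% to 66.2%) but replicates 4 and 5 overlapped with TG Me-X04- (47.1% to 63.3%).

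miR-669a is encoded by many hairpin copies in the intron. Its arms are listed as miR-669a-5p/miR-669p-5p, which matches 14 hairpins, and miR-669a-3p/miR-669o-3p, which matches 13. In the mouse, miR-669a has been described as a repressor of muscle differentiation genes. The 3p entry had 0, 33, 30, 36 and 47 UMIs in WT replicates 1 to 5, and 29, 16, 0, 16 and 18 UMIs in TG Me-X04-. Among TG Me-X04+ libraries only replicate 3 was above 0, with 11 UMIs. The groups overlapped through the zeros of WT replicate 1 and TG Me-X04- replicate 3. The fitted log2 fold change of the 3p entry was -4.08 ± 1.16 against WT (SE, edgeR adjusted p = 0.0175) and -3.34 ± 1.15 against TG Me-X04- (edgeR adjusted p = 0.0755, not called). Because 4 of the 5 TG Me-X04+ values are listed at 0, the size of these folds rests on how zeros are treated. With 9 UMIs assumed in each TG Me-X04+ library at 0, the WT mean was still at least 3.19-fold higher on the TMM scale and at least 1.33-fold higher in library-size CPM. The TG Me-X04- mean was at least 1.93-fold higher on the TMM scale, and no bound could be given in library-size CPM. The call against WT was lost without WT replicate 2 (edgeR adjusted p = 0.0553) and without WT replicates 4 and 5 together (edgeR adjusted p = 0.0842), and without TG Me-X04+ replicate 3, the only one above 0, the fitted value was -7.84. Against TG Me-X04- the entry was called once WT replicate 1 (edgeR adjusted p = 0.0305), dye-negative replicate 3 (edgeR adjusted p = 0.0166) or dye-positive replicate 3 (edgeR adjusted p = 0.0106) was left out.

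The 5p entry of the same hairpins did not follow the 3p entry. It had 33, 12, 38, 29 and 41 UMIs in WT, 31, 60, 48, 24 and 22 UMIs in TG Me-X04-, and 22, 39, 41, 37 and 34 UMIs in TG Me-X04+. Its level was 68.6 ± 23.6 CPM in WT, 80.3 ± 23.2 CPM among dye-negative TG libraries and 71.7 ± 19.0 CPM in TG Me-X04+ (TMM scale, SD, n = 5), and the groups overlapped. The log2 fold change of TG Me-X04+ against WT was 0.05 ± 0.27 (edgeR adjusted p = 0.965). The 5p share of the UMIs of both entries, which needs no scaling between libraries, had a median of 46.6% in WT and 100% in TG Me-X04+. In WT the share was 26.7% to 55.9% in replicates 2 to 5 and 100% in replicate 1, and in TG Me-X04- it was 51.7% to 100%. In TG Me-X04+ it was 78.8% in replicate 3 and 100% in the other libraries, and with 9 hidden UMIs assumed on the 3p side it was still at least 71.0% in each of the 5 libraries. The joined names differ between the arms (miR-669p on the 5p side, miR-669o on the 3p side), so the share is not that of 1 hairpin.

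**Figure D2:**
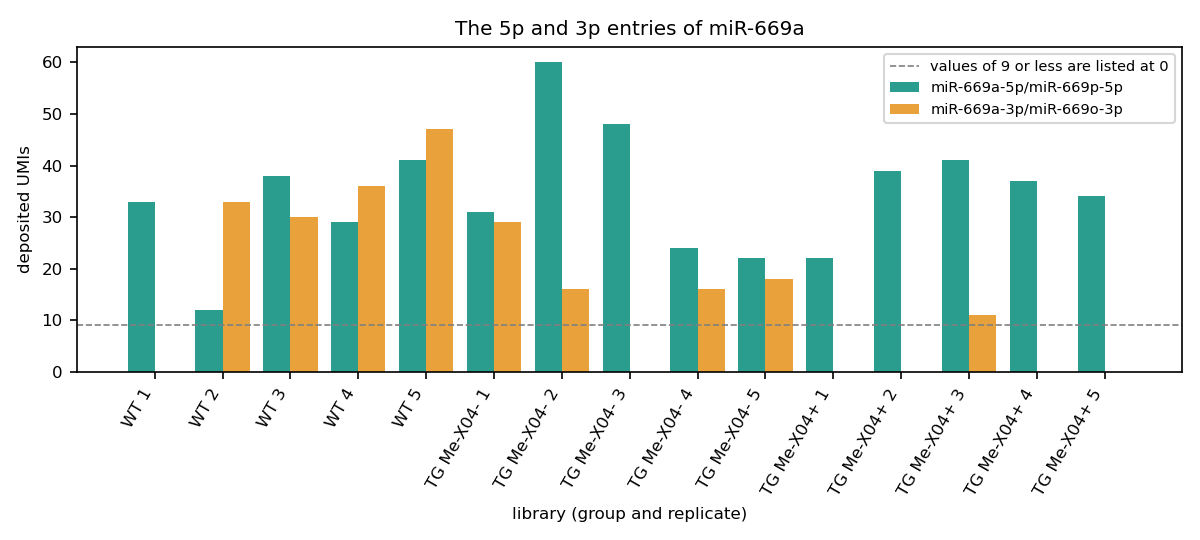
Deposited UMIs of the 5p and 3p entries of miR-669a (vertical axis) in each of the 15 libraries (horizontal axis), with a dashed line at 9 UMIs, the largest value that is listed at 0. The 5p bars are at 12 to 60 UMIs in every library, while the 3p bars are at 0 in 4 of the 5 TG Me-X04+ libraries.

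For miR-669c the other arm was seen as well. miR-669c-3p, which in the mouse has been linked to the signalling adaptor MyD88 in microglia and macrophages, was above 0 in 7 libraries with 13 to 39 UMIs and failed the filter. The 5p share of miR-669c was 90.4% to 100% in WT, 84.8% to 100% among dye-negative TG libraries and 64.9% to 100% in TG Me-X04+, with the lowest value in TG Me-X04+ replicate 3. For miR-467c, whose arms both passed the filter, the 5p share had a median of 85.3% over 4 WT libraries, 58.1% over 4 TG Me-X04- libraries and 68.5% over 4 TG Me-X04+ libraries, where it ran from 36.8% to 100%, and the groups overlapped.

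miR-467e-5p was listed at 0 in most TG Me-X04+ libraries. It had 10, 20, 25, 32 and 37 UMIs in WT and 10, 18, 15, 16 and 12 UMIs in TG Me-X04-. Among TG Me-X04+ libraries it was listed at 0 in replicates 1 to 3 and had 10 and 11 UMIs in replicates 4 and 5. The TMM-scaled level was 54.2 ± 14.9 CPM in WT, 31.6 ± 3.70 CPM among dye-negative TG libraries and 8.08 ± 11.1 CPM in TG Me-X04+ (SD, n = 5). On that scale the highest TG Me-X04+ library (20.4 CPM) lay below the lowest of the other groups (28.3 CPM). The log2 fold change against WT was -2.68 ± 0.92 (SE) and missed the threshold (edgeR adjusted p = 0.0533), while DESeq2 gave -2.72 with an adjusted p of 0.00119. The edgeR adjusted p was 0.0452 without WT replicate 1, and 0.0305 and 0.0307 when dye-positive replicate 4 or 5 was left out. Against TG Me-X04- the value was -1.90 ± 0.91 (edgeR adjusted p = 0.287). With 9 UMIs in place of each 0, the WT mean was at least 2.64-fold higher on the TMM scale and at least 1.14-fold higher in library-size CPM.

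miR-466a-3p/miR-466e-3p, from hairpins of the intron, was at 0 in each of the 5 TG Me-X04+ libraries. It had 0, 10, 22, 16 and 32 UMIs in WT and 0, 0, 11, 0 and 0 UMIs in TG Me-X04-. It was above 0 in only 5 libraries, 4 of them WT, so it passed the filter on low counts mainly through WT, where it was highest. The edgeR adjusted p against WT was 0.0511, a value that this selection favours. With all TG Me-X04+ values at 0 the fitted fold has no fixed size. With 9 UMIs in each TG Me-X04+ library the WT mean was at least 1.70-fold higher on the TMM scale. In library-size CPM no bound could be given, since 9 UMIs in the shallower TG Me-X04+ libraries correspond to a mean of 32.3, against 22.2 in WT.

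The other well-covered members did not pass the test in any comparison on the TMM scale, and their groups overlapped. miR-669j had 18, 15, 25, 26 and 23 UMIs in WT, 14, 32, 32, 22 and 26 UMIs among dye-negative TG libraries and 22, 11, 54, 28 and 42 UMIs in TG Me-X04+. Its level was 49.0 ± 9.30 CPM, 55.5 ± 10.7 CPM and 59.6 ± 18.5 CPM in these groups (SD, n = 5), with a log2 fold change of 0.30 ± 0.27 against WT (edgeR adjusted p = 0.627) and 0.11 ± 0.27 against TG Me-X04- (edgeR adjusted p = 0.997).

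miR-466i-3p, whose hairpin is on chromosome 13 and whose sequence is shown above, had 16, 11, 25, 23 and 33 UMIs in WT. It had 0, 35, 42, 27 and 30 UMIs among dye-negative TG libraries and 29, 12, 56, 30 and 41 UMIs in TG Me-X04+. The level was 47.2 ± 9.34 CPM in WT and 65.3 ± 21.0 CPM in TG Me-X04+ (TMM scale, SD, n = 5), a log2 fold change of 0.46 ± 0.44 (edgeR adjusted p = 0.673). The groups overlapped. This entry from outside the intron and the intronic miR-669j thus had levels in the same range.

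miR-466d-3p, an intronic 3p entry, had 15, 21, 26, 12 and 35 UMIs in WT, 15, 17, 12, 17 and 13 UMIs in TG Me-X04-, and 11, 15, 33, 15 and 18 UMIs in TG Me-X04+. Its TMM-scaled level was 49.3 ± 16.1, 33.8 ± 7.46 and 35.6 ± 5.03 CPM, and the groups overlapped (edgeR adjusted p = 0.606 for TG Me-X04+ against WT). miR-467c-5p had 0, 18, 13, 12 and 53 UMIs in WT, 11, 29, 20, 0 and 19 UMIs in TG Me-X04-, and 11, 20, 25, 0 and 24 UMIs in TG Me-X04+. Each group thus held 1 library at 0, and the edgeR adjusted p for TG Me-X04+ against WT was 0.947.

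**Figure D3:**
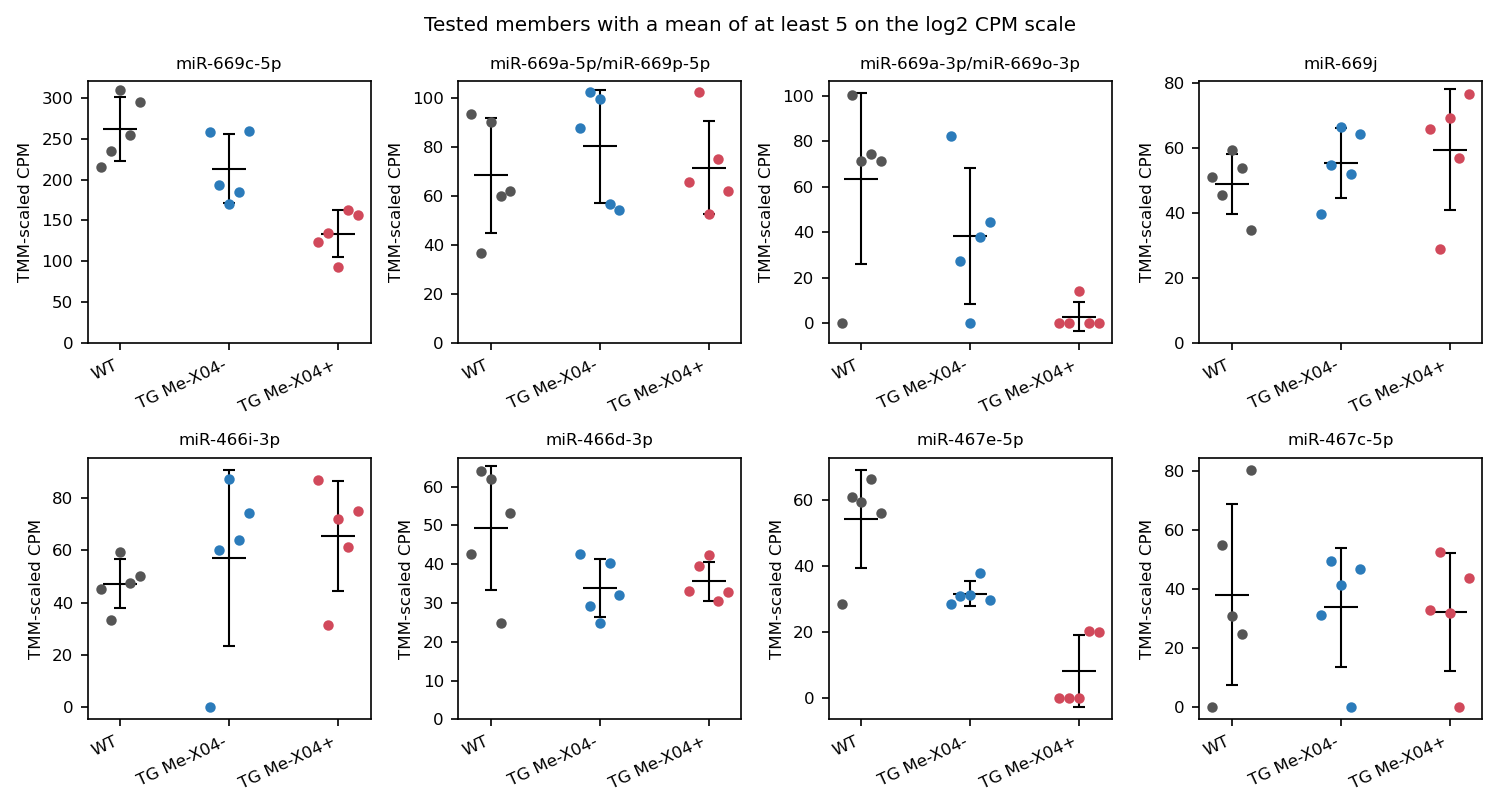
TMM-scaled CPM (vertical axis, linear) of the 8 tested members with a mean of at least 5 on the log2 CPM scale, by group (horizontal axis), with points for libraries, horizontal marks for means and bars for SD (n = 5). For miR-669c-5p all 5 TG Me-X04+ libraries lie below the other groups, and for miR-467e-5p the highest TG Me-X04+ library, at 20.4 CPM, lies below 28.3 CPM, the lowest of the others.

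The last 6 tested members were seen in 7 to 12 libraries, at 10 to 43 UMIs where above 0. They were miR-466l-3p, which in mouse macrophages has been reported to stabilize the mRNA of the cytokine IL-10, miR-467b-3p, which comes from a hairpin linked to lipoprotein lipase in mouse macrophages, miR-467c-3p, miR-669h-5p, miR-669m-3p and miR-669n. Their log2 fold changes against WT ran from 0.62 for miR-669n to 1.48 for miR-466l-3p, with standard errors of 1.13 to 1.80. miR-669h-5p was above 0 in 5 of 5 TG Me-X04+ libraries, 3 of 5 WT libraries and 2 of 5 TG Me-X04- libraries. miR-669n was above 0 in 5, 4 and 3 libraries of the same groups. None of these 6 passed the test in any comparison as fitted here (edgeR), and each standard error exceeds the difference from WT it belongs to. After scaling down to the smallest library miR-669n was called higher in TG Me-X04+ against either group. Every WT and TG Me-X04- library was deeper than every TG Me-X04+ library, so the counts of miR-669n there were reduced the most. Values under 10 were then set to 0, so this call was largely set by construction. In that setting 243 of 993 entries were called higher against WT and 70 of 993 against TG Me-X04-.

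The remaining 29 members were not tested. The most widely seen were miR-466h-5p, miR-466i-5p and miR-669c-3p (7 libraries each) and miR-466m-5p/miR-669m-5p and miR-467f (6 each). Then came miR-466k and miR-669i in 4 libraries, and miR-297a-3p/miR-297b-3p/miR-297c-3p, miR-466g, miR-467d-5p, miR-669b-3p, miR-669d-3p, miR-669g and miR-669p-3p in 3. In 2 libraries each were miR-297c-5p, miR-466b-3p/miR-466c-3p/miR-466p-3p, miR-466n-3p, miR-467a-3p and miR-669e-3p. In 1 library each were miR-466b-5p/miR-466o-5p, miR-466c-5p, miR-466h-3p, miR-466j, miR-466m-3p, miR-467b-5p, miR-467d-3p, miR-669b-5p, miR-669d-2-3p and miR-669l-3p. The joined miR-297 entry, the most abundant of its family, had 16 UMIs in WT replicate 5, 12 UMIs in TG Me-X04- replicate 2 and 15 UMIs in TG Me-X04+ replicate 3. No value of these 29 members exceeded 39 UMIs. miR-669g was seen in 3 TG Me-X04+ libraries alone, with 12 to 17 UMIs, and miR-669p-3p in 2 WT libraries and 1 TG Me-X04- library with 11 UMIs each.

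Over all 15 tested members, the comparison of dye-positive with dye-negative TG microglia, which asks what goes with uptake of amyloid, called 0 members by edgeR, against 9.97% of all 1435 tested entries (143 entries). Of 1265 other tested entries within the members' range of mean log2 CPM (4.08 to 7.69), 4.35% were called. That range holds most tested entries and is not a close match in abundance. DESeq2 also called 0 members, against 11.7% of all entries, and 3 members had an unadjusted p under 0.05 (edgeR). These were miR-669a-3p/miR-669o-3p, miR-669c-5p and miR-467e-5p, all 3 with values below 0, a direction in which 11.6% of all entries had such a p, so that 3 of 15 is near the background. The median log2 fold change was 0.08 over the tested members and 0.17 over all tested entries, with 9 members above 0 and 6 below.

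Dye-negative TG microglia against WT, which differ in genotype and labelled age, likewise gave 0 called members (edgeR), against 0.139% of all entries. DESeq2 called 0 members, against 0.139% of all entries, and 0 members had an unadjusted p under 0.05, against 3.76% of all entries. miR-669c-5p differed by -0.30 ± 0.20 on the log2 scale (SE, edgeR adjusted p = 0.998) and miR-669a-3p/miR-669o-3p by -0.74 ± 0.98. The median over the tested members was -0.30, and 0.03 over all tested entries.

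Dye-positive TG microglia against WT gave 2 called members, miR-669c-5p and miR-669a-3p/miR-669o-3p, both lower. Among all 1435 entries 15.4% were called, and 11.7% were called lower. A count of 2 of 15 is near this background. Among 1265 other tested entries within the members' range of mean log2 CPM 9.09% were called, 44 of them higher and 71 lower. DESeq2 called 3 members, with miR-467e-5p added, against 17.1% of all entries. The comparison shares its TG Me-X04+ libraries with the first comparison and its WT libraries with the second. Of the 15 tested members 9 had a log2 fold change above 0 and 6 below, with medians of 0.30 over the members and 0.27 over all entries. By family the medians were 0.30 for 7 miR-669 entries, 0.00 for 4 miR-466 entries and 0.38 for 4 miR-467 entries.

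**Figure D4:**
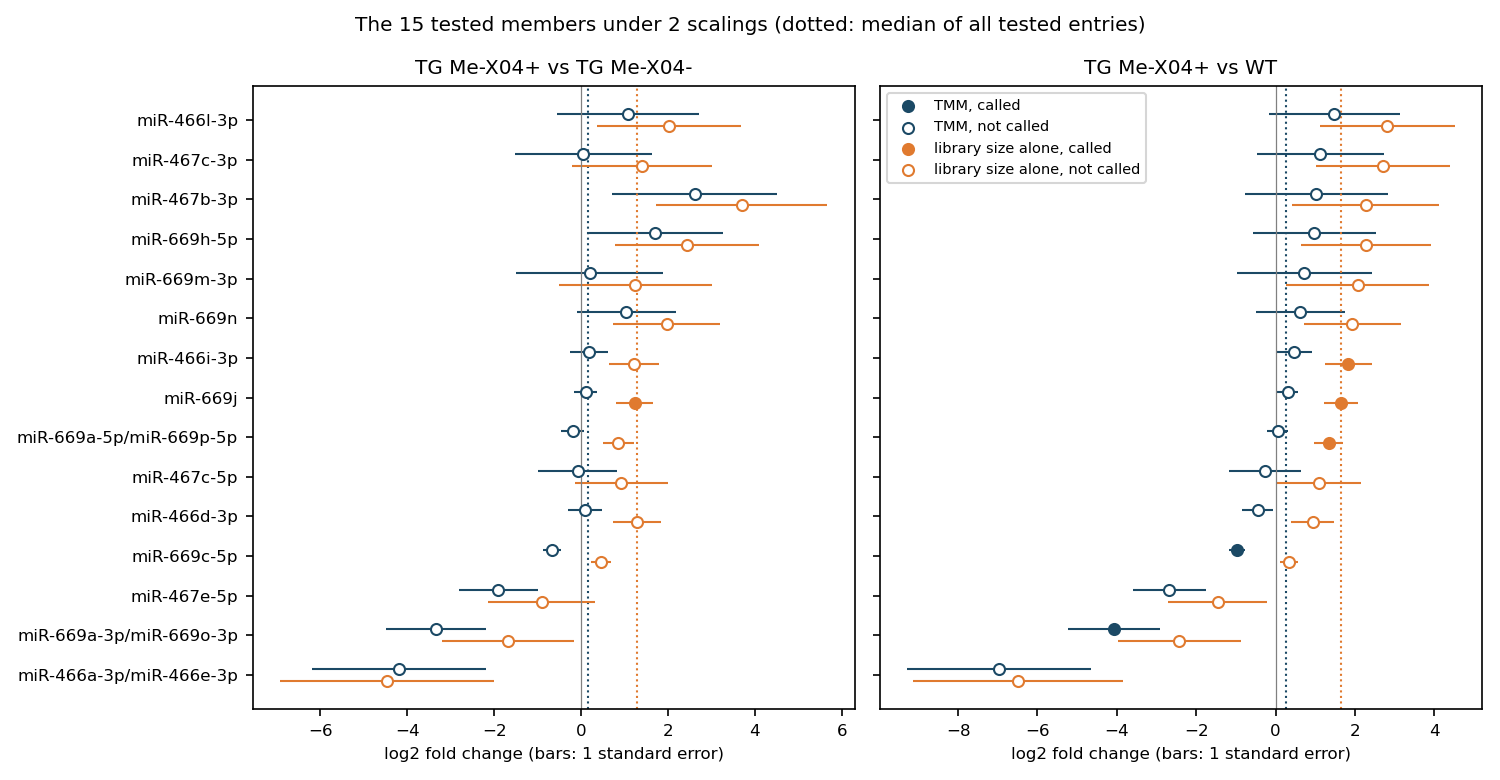
Log2 fold changes with bars of 1 SE (horizontal axis) of the 15 tested members (vertical axis) in both comparisons of TG Me-X04+, with TMM factors and with library size alone, where filled points are called and dotted lines mark the median of all tested entries. With TMM the called members against WT are miR-669c-5p and miR-669a-3p/miR-669o-3p, at -0.97 and -4.08, and with library size alone they are miR-466i-3p, miR-669j and miR-669a-5p/miR-669p-5p, at 1.83, 1.65 and 1.33.

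Without TMM factors the calls against WT changed in kind. miR-466i-3p (log2 fold change 1.83, edgeR adjusted p = 0.0129), miR-669j (1.65, edgeR adjusted p = 0.00323) and miR-669a-5p/miR-669p-5p (1.33, edgeR adjusted p = 0.00455) were then called higher in TG Me-X04+, and 0 members were called lower. These are 3 of 15 members, while 44.9% of all 1435 entries were called higher on that scale. miR-466i-3p lay 0.18 above the median of all entries on that scale (1.65), miR-669j at that median and miR-669a-5p/miR-669p-5p at -0.31 from it. miR-669a-3p/miR-669o-3p kept its direction at -2.42 (edgeR adjusted p = 0.189), as did miR-467e-5p at -1.46. The 3p entry of miR-669a, miR-467e-5p and miR-466a-3p/miR-466e-3p were the lowest of the 15 members on both scales. Because a change of scaling moves all entries together, this shared order was largely set by construction.

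The sums of the families showed the same dependence. In library-size CPM all members together came to 624 ± 113 in WT, 609 ± 182 among dye-negative TG libraries and 1382 ± 662 in TG Me-X04+ (SD, n = 5). On the TMM scale they came to 887 ± 211, 730 ± 84.9 and 749 ± 149 CPM. The miR-669 family was at 371 ± 50.4, 390 ± 94.7 and 769 ± 311 library-size CPM, and at 525 ± 99.2, 472 ± 21.6 and 424 ± 67.2 CPM on the TMM scale. The miR-466 family was at 387 ± 219 library-size CPM in TG Me-X04+ and 147 ± 25.4 in WT, and at 205 ± 46.1 and 212 ± 65.7 CPM on the TMM scale. The miR-467 family was at 196 ± 111 library-size CPM in TG Me-X04+ and 103 ± 65.0 in WT, and at 107 ± 48.1 and 146 ± 87.0 CPM. In library-size CPM every TG Me-X04+ library exceeded all others for miR-466. For miR-669 the TG Me-X04+ libraries (454 to 1224) all lay above WT (319 to 435) but overlapped with TG Me-X04- (270 to 523). For miR-467 they overlapped with both other groups. On the TMM scale the groups overlapped for each of these 3 families. The miR-297 family was above 0 in 1 WT library, 1 TG Me-X04- library and 2 TG Me-X04+ libraries.

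**Figure D5:**
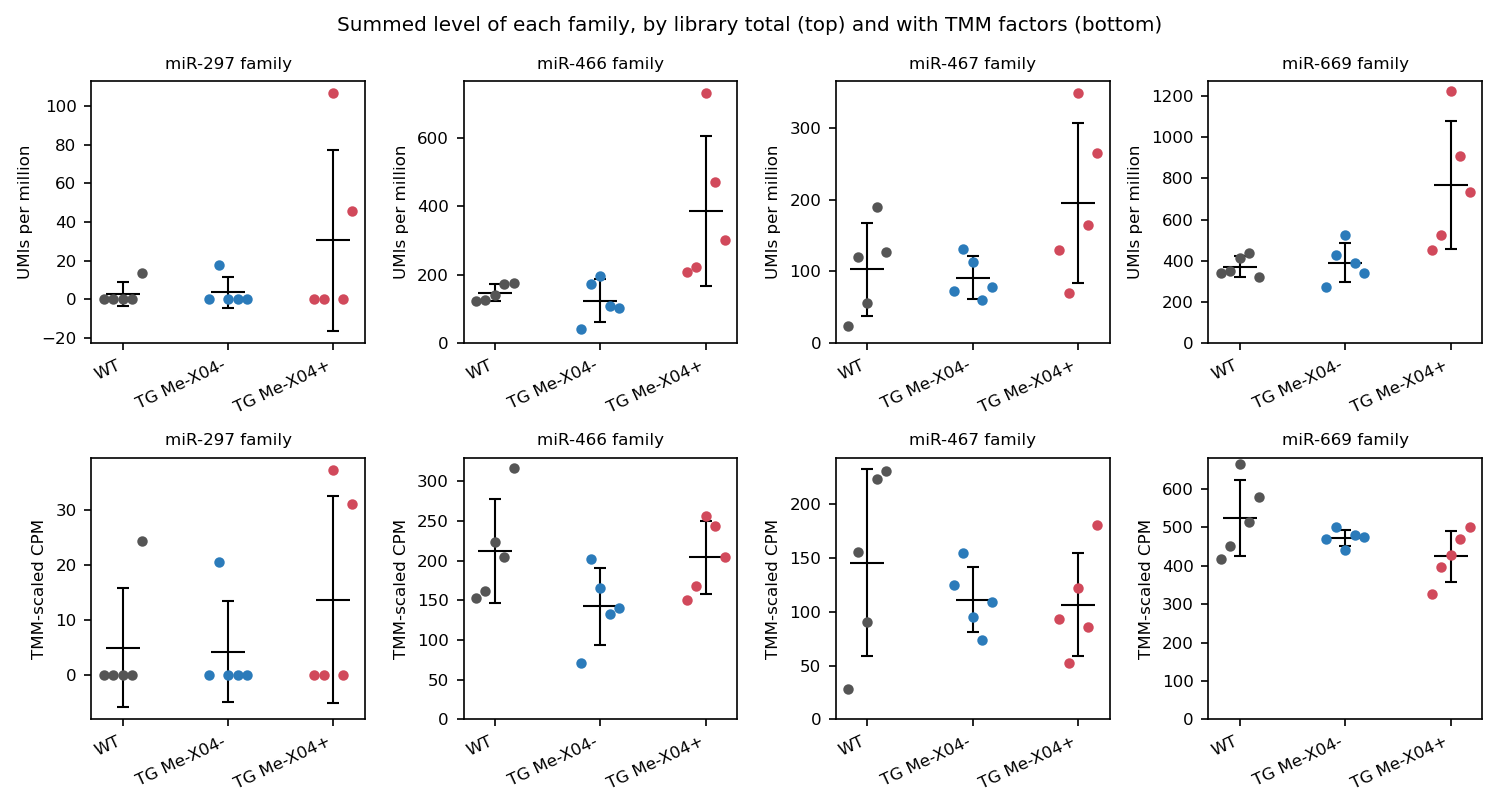
Summed levels of each family by group (horizontal axis), in library-size CPM (upper row) and as TMM-scaled CPM (lower row), with points for libraries, marks for means and bars for SD (n = 5). The miR-669 sum in TG Me-X04+ has a mean of 769 library-size CPM, above 371 in WT, but 424 CPM on the TMM scale, below 525 CPM in WT.

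On the TMM scale the 5p entries summed to 495 ± 82.8 CPM in WT, 404 ± 83.2 CPM among dye-negative TG libraries and 323 ± 61.7 CPM in TG Me-X04+ (SD, n = 5). The 3p entries summed to 290 ± 111, 231 ± 57.8 and 274 ± 131 CPM, and the entries with no arm in their name to 102 ± 36.6, 95.6 ± 51.0 and 152 ± 19.5 CPM. In library-size CPM the 5p sum was 351 ± 48.8 in WT and 562 ± 148 in TG Me-X04+, and the 3p sum 202 ± 68.9 and 541 ± 416. The groups overlapped in the 5p, the 3p and the arm-less sums on the TMM scale. The 5p sum holds miR-669c-5p, whose own values are given above. In TG Me-X04+ the 3p sum ranged from 131 to 423 CPM, with the highest value in replicate 3 on both scales.

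Markers of cell types moved between the same groups, in part depending on the scaling. The 5 myeloid miRNAs checked summed to 109557 to 176049 CPM in WT, 88918 to 185408 CPM among dye-negative TG libraries and 24161 to 47888 CPM in TG Me-X04+ (TMM scale), and in library-size CPM to 88885 to 119257 in WT and 60598 to 74391 in TG Me-X04+. These sums are mostly miR-146a-5p and miR-142a-3p, while miR-155-5p of the same list went the other way, with TMM-scaled medians of 95.1 CPM in WT, 284 CPM among dye-negative TG libraries and 813 CPM in TG Me-X04+. The 4 neuronal miRNAs summed to 1609 to 3819 CPM in WT, 1354 to 2853 CPM among dye-negative TG libraries and 624 to 1014 CPM in TG Me-X04+ on the TMM scale, but overlapped in library-size CPM, at 1306 to 3231 in WT and 1142 to 1782 in TG Me-X04+. Of these, miR-138-5p had its highest TMM-scaled median in TG Me-X04+, at 99.7 CPM against 70.8 CPM in WT. The 2 oligodendrocyte miRNAs summed to 266 to 378 CPM in WT and 79.7 to 189 CPM in TG Me-X04+ with TMM, and to overlapping ranges of 202 to 293 and 188 to 250.3 in library-size CPM. The 2 endothelial miRNAs summed to 99.2 to 344 CPM and 25.5 to 84.0 CPM with TMM, and to overlapping ranges of 69.6 to 291 and 37.5 to 198 in library-size CPM. The 2 epithelial and the 2 erythroid miRNAs overlapped between WT and TG Me-X04+ with TMM, the former at 160 to 231 CPM and 130 to 213 CPM, the latter with medians of 69.0 CPM and 95.1 CPM. In library-size CPM the epithelial sum did not overlap, at 126 to 165 in WT and 191 to 437 in TG Me-X04+. The erythroid sum overlapped on that scale, at 37.7 to 89.5 in WT and 66.7 to 275 in TG Me-X04+. The part of these shifts in the values of the members was not tested.

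Among the 671 other entries with UMIs in all 15 libraries, those whose TMM-scaled log2 levels followed miR-669c-5p most closely were miR-30c-5p (Pearson's r = 0.95 over 15 libraries), miR-125b-2-3p (0.95), miR-185-5p (0.94), miR-125b-5p (0.94) and miR-30e-3p (0.94). The other 3 members seen in every library came far behind. miR-466d-3p had an r of 0.31 and ranked 210th, miR-669a-5p/miR-669p-5p had an r that rounds to 0 and ranked 276th, and miR-669j had -0.28 and ranked 395th. The points share their libraries, TMM factors and group differences, so these values are a description. These 3 members had 11 to 60 UMIs per library and mean levels of 39.6 to 73.5 CPM, against 167 to 26429 CPM for the entries named first. The part of counting noise in their lower r was not tested.

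The Dlk1-Dio3 region holds the other large imprinted miRNA cluster of the mouse and gives a comparison of like kind. Of its 94 listed entries 65 passed the filter. It had 1 entry called higher and 1 lower in TG Me-X04+ against TG Me-X04-, 0 of either kind in TG Me-X04- against WT (edgeR, with 0 at an unadjusted p under 0.05) and 2 called lower in TG Me-X04+ against WT. Its median log2 fold changes were 0.25, 0.00 and 0.28 in these comparisons, beside 0.17, 0.03 and 0.27 over all entries.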

How the data were processed

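Small RNA from the sorted microglia was made into libraries with unique molecular identifiers and sequenced. Reads were assigned by the authors in the Qiagen Data Analysis Center, and raw counts of reads and of UMIs were deposited for every entry. edgeR 3.24.3 and GRCm38 are named in the submitters' processing notes. No deposited UMI count lies between 1 and 9. Groups and ages follow the labels, which differ from the study's methods in ages and numbers of animals. The p-values measure the spread between these libraries.

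The members and lists were chosen with earlier results of these data known. All 15 libraries entered 1 fit of the UMI counts in edgeR 4.0.16 (R 4.3.3), using filterByExpr, TMM factors and the quasi-likelihood F-test. Adjustment followed Benjamini and Hochberg over the 1435 entries kept. A call required an adjusted p under 0.05 together with a log2 fold change of 0.7 or more in size, as in the study's methods. Each standard error was derived from the F statistic. The fit was tested on simulated counts in which 200 entries had been changed. By the rule for naming, every tested member was described, with each library's count where the mean log2 CPM was 5 or more and for the leading entry of each family and arm. The opposite arm of such hairpins was added, and the other members were named with ranges.

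The alternatives were stricter thresholds, other scalings (median-of-ratios factors, library size, all RNA classes), DESeq2 1.42.0, other filters, read counts, 5 UMIs in place of 0, scaling down to the smallest library, fits of the compared groups alone, a covariate for neighbouring mouse numbers (a grouping made here), the mouse as a block, and leaving out each library. Leaving out WT replicates 4 and 5 together was chosen after seeing the data. By the labels, TG libraries with the same number come from the same mouse and are paired, and their deviations from the group means correlated between -0.04 and 0.54. The most alike replicates still differed beyond sampling noise (chi-square of 2.75 per degree of freedom), and each library was counted. Hairpins (GENCODE vM21) and sequences (RefSeq, GRCm38.p6) were matched by name. Precision is limited by the low counts, with 41 to 194 UMIs per library for miR-669c-5p and, where above 0, 10 to 60 UMIs for the other members.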

Additional observations from a re-analysis of the deposited data

Results flagged for a closer look

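Among 53 groups of 5 libraries examined, 6 had a library that stood far from the rest of its group by Dixon's criterion, and chance alone gives about 1 in 20. On the TMM scale miR-669a-3p/miR-669o-3p reached 14.1 CPM in TG Me-X04+ replicate 3, the only library of its group above 0. miR-466a-3p/miR-466e-3p reached 22.8 CPM in TG Me-X04- replicate 3, where the other 4 libraries were listed at 0. miR-467e-5p was lowest in WT replicate 1, at 28.3 CPM, and highest in TG Me-X04- replicate 4, at 37.9 CPM. The miR-297 family reached 13.4 library-size CPM in WT replicate 5 and 17.6 in TG Me-X04- replicate 2, each the only library of its group with a value above 0. Of these values, 4 rest on a single library with 11 to 16 UMIs beside libraries at 0.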

How the results depend on the processing

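The members called in TG Me-X04+ against TG Me-X04- (0 as reported) numbered 1 with library size alone and 1 with the total of all RNA classes (miR-669j, higher), 3 with 5 UMIs in place of 0 (lower), 2 after scaling down (miR-466d-3p and miR-669n, higher) and 0 to 2 when a library was left out. With the mouse as a block, 0 members were called and miR-669c-5p was at -0.69 (edgeR adjusted p = 0.0349). Against WT (2 as reported) they numbered 0 at an adjusted p of 0.01 and a log2 fold change of 1. They numbered 3 with library size alone (other members, all higher) and 4 with all RNA classes (other members, 3 higher). With 5 UMIs in place of 0 they numbered 4, all lower. After scaling down they numbered 1 (miR-669n, higher), and neither reported call was kept. Only miR-669c-5p was called, as lower, with entries above 0 in every library, read counts or the covariate, and without WT replicates 4 and 5. When a library was left out they numbered 1 (without WT replicate 2) to 4 (without WT replicate 1). miR-669c-5p kept its call against WT without each library in turn (-1.06 to -0.88), but turned to 0.33 with library size alone and 0.22 with all RNA classes, and against TG Me-X04- to 0.45 and 0.27. miR-669a-3p/miR-669o-3p lost its call against WT with library size alone (-2.42), all RNA classes (-2.72), read counts and the covariate, the last with an edgeR adjusted p of 0.0581. miR-669a-5p/miR-669p-5p, near 0 against WT, was at -0.042 with 5 UMIs in place of 0, -0.014 with the covariate, -0.068 without WT replicates 4 and 5 and -0.11 to 0.17 without single libraries. Over all entries, TG Me-X04+ against TG Me-X04- gave 143 calls as reported, 80 at the stricter thresholds, 500 with library size alone (96.8% higher) and 435 with all RNA classes. Against WT it gave 221, 137, 672 (95.8% higher, 24.0% as reported) and 677, and 349 after scaling down (69.6% higher). With 5 UMIs in place of 0, TG Me-X04+ had 165 calls (11.5% of entries) against TG Me-X04- and 261 (18.2%) against WT. Scaling down gave 140 calls (14.1% of entries) in TG Me-X04+ against TG Me-X04-. TG Me-X04- against WT gave 2 as reported, 0 at the stricter thresholds, 4 with no filter, 1 each with entries above 0 in every library, read counts, scaling down and the covariate, 6 with 5 UMIs in place of 0, and 0 to 2 without single libraries. The WT sum of all members was 624 in library-size CPM, 452 CPM against the UMIs of all RNA classes and 887 CPM with TMM. Scaling down left a mean of 3.8 members above 0 in WT and 4.0 in TG Me-X04-, from 17.0 and 14.4. Scaling and the treatment of zeros set these counts by construction, and for the other settings the cause was not tested. Members under 10 UMIs cannot be told from absent at this depth.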
